A study of Mus musculus with 8 samples.

Results

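Thin filament, Z-disc and M-band genes encode the parts of the sarcomere other than the myosin chains. A list of 31 such genes was read from arrays of embryonic mouse heart cells by the gene name printed for each probe, out of 27725 gene names on the array. All 67 probes carrying one of these names were kept, from 41174 probes in all. The list has 10 thin filament genes, 12 Z-disc genes, 4 genes of the M-band and of titin and its partner, and 5 genes of assembly and stress factors. The cells came from hearts of minKGFP transgenic mouse embryos at E10.5 (embryonic day), so both groups carried the same transgene, which reports minK (Kcne1), a potassium channel subunit. Single cells were separated by brightness into GFP-high cells, labelled as conduction system, and GFP-low cells, labelled as chamber myocardium. Each group had 4 samples called biological replicates. The groups are therefore defined by brightness of a reporter and not by dissection, and the labels do not give the sort thresholds, the number of pooled hearts or whether equal replicate numbers share a litter. P-values thus measure the spread between these 4 samples per group, whatever made them differ. The arrays started from 5 ng of RNA per sample, which was amplified, and 2 ug of product was labelled with 1 dye.

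In the sarcomere, actin thin filaments slide along myosin filaments. Tropomyosin and the troponin complex on the thin filament make this depend on calcium. Thin filaments of neighbouring sarcomeres are tied together by alpha-actinin at the Z-disc, where PDZ and LIM domain proteins also gather. Titin runs from the Z-disc to the M-band, where myomesins link the myosin filaments. In the embryonic heart, the cells of the atrioventricular canal and sinus region are known as slowly conducting muscle with less developed sarcomeres than the working muscle of the chambers, and many sarcomere genes are known targets of serum response factor and of MEF2 proteins.

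Serum response factor binds the CArG box and MEF2 proteins bind a related A- and T-rich site, so start-site windows of the members were searched for both. RefSeq windows (GRCm38.p6) were held for 26 of the 31 members, in 36 windows of which the 250 bases before the start were read on both strands. A CArG box lay in 6 of the 36 windows (16.7%) against 482 of 32851 windows of all genes (1.47%). A MEF2 site lay in 6 of the 36 (16.7%) against 959 of the 32851 (2.92%). The CArG boxes belonged to Acta1, Actc1, Ldb3, Myom1 and Nebl, and the MEF2 sites to Mybpc3, Myoz2, Synpo2l, Ttn and Xirp2. Windows of 1 gene can overlap, as those of Ldb3 do, and a match is a description of the letters and not evidence of binding. The letters TATAAA were in 8.33% of the member windows and 12.4% of all windows, CATTCC in 25% and 12.6%, and AGATAA in 13.9% and 9.99%. The following windows are the 250 bases before the start, written 5′ to 3′ on the gene's strand, with the CArG box or MEF2 site in capitals. They are shown for the 8 genes that carry a motif and have their values on every array given below, with 1 of the overlapping Ldb3 windows. Actc1 and Acta1 are the sarcomeric actin genes, Ldb3 and Myoz2 encode Z-disc proteins, Mybpc3 encodes the cardiac myosin-binding protein C, Myom1 and Ttn encode myomesin and titin, and Xirp2 encodes an actin-binding protein of the Xin family.
Actc1, chr2:114052876-114053125, minus strand, CArG box 47 to 38 bases before the start: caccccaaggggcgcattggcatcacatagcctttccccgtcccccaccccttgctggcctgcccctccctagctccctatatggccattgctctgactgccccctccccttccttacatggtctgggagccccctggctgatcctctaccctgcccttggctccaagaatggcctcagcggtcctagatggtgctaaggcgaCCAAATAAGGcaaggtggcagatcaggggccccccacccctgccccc
Acta1, chr8:123894776-123895025, minus strand, CArG box 73 to 64 bases before the start: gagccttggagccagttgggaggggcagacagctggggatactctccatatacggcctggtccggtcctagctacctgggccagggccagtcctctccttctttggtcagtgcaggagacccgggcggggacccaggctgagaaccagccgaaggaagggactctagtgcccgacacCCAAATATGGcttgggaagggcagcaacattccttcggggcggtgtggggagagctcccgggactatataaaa
Ldb3, chr14:34588682-34588931, minus strand, CArG box 35 to 26 bases before the start: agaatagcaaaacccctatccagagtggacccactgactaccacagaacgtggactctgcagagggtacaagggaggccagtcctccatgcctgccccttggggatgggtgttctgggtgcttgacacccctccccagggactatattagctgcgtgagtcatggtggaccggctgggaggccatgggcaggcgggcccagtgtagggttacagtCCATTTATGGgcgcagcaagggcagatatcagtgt
Mybpc3, chr2:91117894-91118143, plus strand, MEF2 site 90 to 81 bases before the start: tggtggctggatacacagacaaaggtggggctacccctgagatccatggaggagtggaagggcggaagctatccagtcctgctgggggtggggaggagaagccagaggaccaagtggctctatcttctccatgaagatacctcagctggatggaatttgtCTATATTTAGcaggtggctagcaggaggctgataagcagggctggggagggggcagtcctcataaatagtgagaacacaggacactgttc
Myoz2, chr3:123034988-123035237, minus strand, MEF2 site 33 to 24 bases before the start: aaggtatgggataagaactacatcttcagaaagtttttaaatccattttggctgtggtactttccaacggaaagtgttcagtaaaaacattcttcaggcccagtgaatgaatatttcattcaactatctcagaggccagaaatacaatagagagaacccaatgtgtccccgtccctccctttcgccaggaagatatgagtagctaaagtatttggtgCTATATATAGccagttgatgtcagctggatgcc
Myom1, chr17:71019307-71019556, plus strand, CArG box 99 to 90 bases before the start: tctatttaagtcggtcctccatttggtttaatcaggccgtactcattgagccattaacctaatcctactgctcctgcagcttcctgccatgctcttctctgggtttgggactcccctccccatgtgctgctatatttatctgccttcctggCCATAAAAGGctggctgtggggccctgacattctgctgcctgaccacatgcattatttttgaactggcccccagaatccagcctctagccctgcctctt
Ttn, chr2:76982548-76982797, minus strand, MEF2 site 166 to 157 bases before the start: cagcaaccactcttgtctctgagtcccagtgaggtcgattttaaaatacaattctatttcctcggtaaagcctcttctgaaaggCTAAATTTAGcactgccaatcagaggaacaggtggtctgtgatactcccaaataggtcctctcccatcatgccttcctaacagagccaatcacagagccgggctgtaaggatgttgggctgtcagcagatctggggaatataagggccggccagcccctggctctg
Xirp2, chr2:67445752-67446001, plus strand, MEF2 site 74 to 65 bases before the start: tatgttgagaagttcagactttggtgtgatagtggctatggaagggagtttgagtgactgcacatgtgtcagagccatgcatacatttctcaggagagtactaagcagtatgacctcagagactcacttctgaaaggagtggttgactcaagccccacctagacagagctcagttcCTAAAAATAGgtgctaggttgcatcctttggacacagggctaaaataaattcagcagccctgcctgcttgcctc

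Values below are log2 of the processed signal minus the array's 75th percentile, so 0 is the brightness of the upper quartile, and differences are GFP-high minus GFP-low. Levels of different genes are not compared, since each probe has its own response. A gene is given by its brightest probe, and it was tested where the scanner software marked that probe as well above background in 4 or more of the 8 samples. The number of arrays limits the precision. In these bulk samples, fewer muscle cells and less RNA per cell cannot be told apart. Between 15735 and 22003 of 43379 spots were well above background, and none was saturated. Kcne1, the check of the sort, did not overlap between the groups on either probe, with differences of 1.29 and 2.83. GFP-high samples always held positions 1 and 3 of a slide and GFP-low samples positions 2 and 4, so position and group cannot be told apart. Each of the 2 slides held 2 samples of each group.

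The sarcomere genes were present in both groups, and most of them read slightly higher in GFP-high without passing the test. Of the 31 genes, 29 were tested, 26 of them above background on all 8 arrays, and Myom2 and Xirp2 were too dim. The median difference of the 29 was 0.34, beside 0.16 for all 12876 tested genes. None passed limma at an adjusted p under 0.05 over all tested genes, where 18 of 12876 genes did (0.14%), and the smallest adjusted p of a member was 0.235, for Csrp3. At an unadjusted limma p under 0.05 there were 5 members higher (17.2%) and 2 lower (6.90%), beside 7.91% and 6.38% of all tested genes. The groups did not overlap in 6 members that were higher (Tnni3, Csrp3, Ldb3, Myoz2, Mybpc3 and Cryab; 20.7%) and in 2 that were lower (Pdlim5 and Tmod1; 6.90%), beside 5.86% and 3.08% of all tested genes. Positive differences were found in 22 of 29 members (75.9%) and in 62.1% of all tested genes, and 19 of 29 (65.5%) lay above the median of all tested genes, which 50% of those genes exceed.

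The median was 0.40 within slide 1 and 0.20 within slide 2, where all tested genes had 0.27 and 0.063. It was 0.18 without GFP-low replicate 3, beside 0.093 for all genes. With quantile normalisation it was 0.10, beside 0.093 for all genes, so the members then stood 0.0082 above the median gene instead of 0.18, and 17 of 29 were positive. By subgroup, the median was 0.34 in the thin filament, 0.47 in the Z-disc, 0.041 in the M-band and titin genes and 0.19 in the assembly and stress genes. The last 2 rest on 3 and 4 tested genes, and the M-band and titin median is the value of Myom1 alone.

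**Figure D1:**
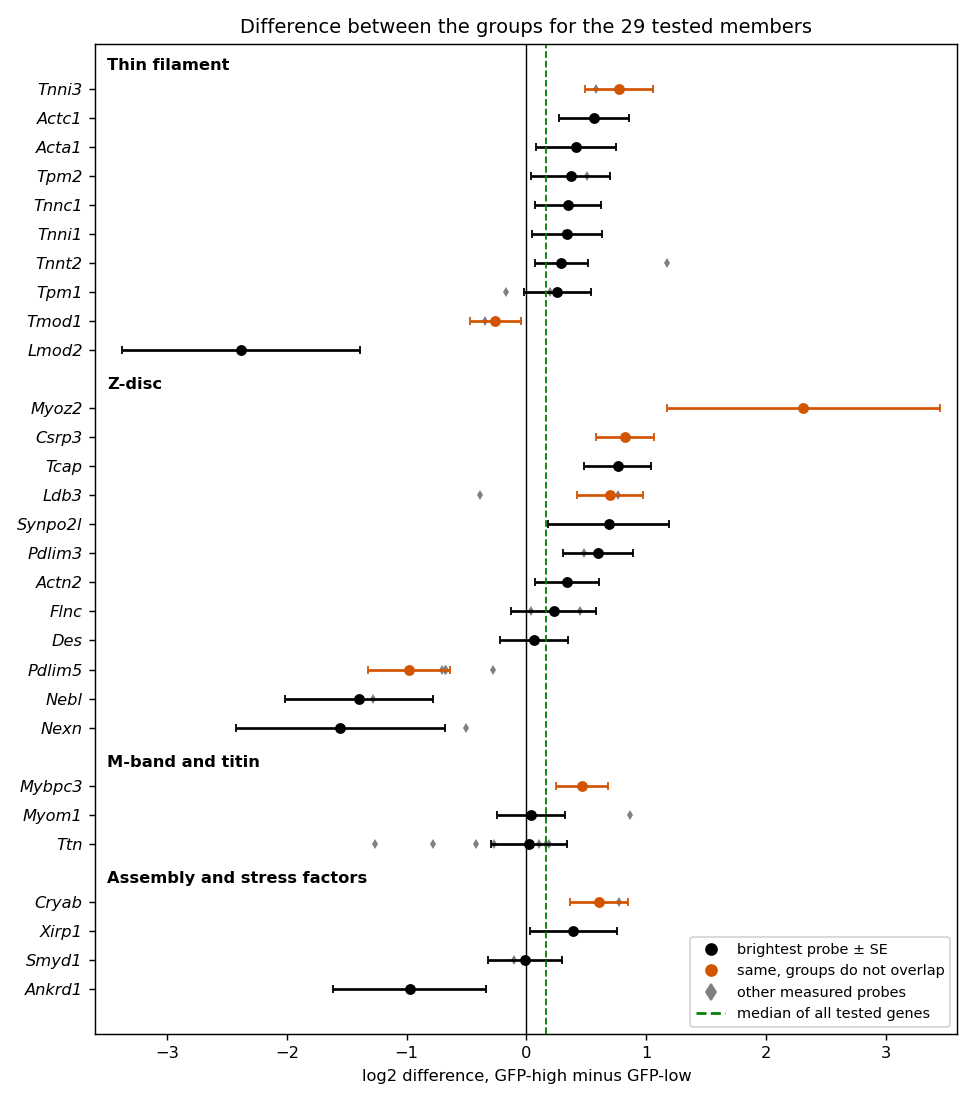
Log2 difference between GFP-high and GFP-low arrays (x axis) for each of the 29 tested members (y axis), as the fitted value of the brightest probe ± SE, with other measured probes as diamonds and the median of all tested genes (0.16) as a dashed line. The 8 orange genes had groups that did not overlap; the widest bars belong to Myoz2 and Lmod2, which were dim on some arrays.

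In the thin filament, 8 of 10 genes had positive and 2 had negative differences, though Tpm1 and Tnnt2 turned to -0.10 and -0.027 with quantile normalisation, and none passed the test. Tnni3, the adult cardiac form of the inhibitory troponin subunit (chr7:4471117-4471176, mouse build mm9, as for all probes), read 7.69, 7.87, 7.11 and 7.38 in GFP-high replicates 1 to 4 and 6.65, 7.09, 6.29 and 6.93 in GFP-low replicates 1 to 4. Its difference was 0.77 ± 0.28 (SE; 1.71-fold, limma adjusted p = 0.293). The lowest GFP-high array, replicate 3, was just above the highest GFP-low array, replicate 2, so the groups did not overlap, and the other Tnni3 probe gave 0.58. Tnni1, the slow skeletal troponin I that predominates in the embryonic heart (chr1:137705328-137706203), read 6.84, 6.90, 6.30 and 7.05 in GFP-high and 6.23, 6.70, 5.96 and 6.85 in GFP-low. The groups overlapped, at 0.34 ± 0.29 (adjusted p = 0.599 by limma). The log2 ratio of Tnni3 to Tnni1 within an array was 0.85, 0.97, 0.81 and 0.33 in GFP-high and 0.42, 0.38, 0.33 and 0.087 in GFP-low. This ratio was 0.43 higher in GFP-high (exact two-sided permutation p = 0.0857, adjusted over 5 pairs 0.214), and only GFP-high replicate 4 lay among the GFP-low values. It differed by 0.51 within slide 1 and by 0.36 within slide 2.

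The sarcomeric actins Actc1, the cardiac form (chr2:113874011-113874934), and Acta1, the skeletal form (chr8:126416197-126416256), both had positive differences. Actc1 read 9.87, 9.86, 9.43 and 9.66 in GFP-high and 9.20, 9.35, 8.46 and 9.56 in GFP-low. GFP-low replicate 3 was the lowest of all arrays, and GFP-low replicate 4 lay within the GFP-high range, which left 0.56 ± 0.29 (limma adjusted p = 0.408), and 0.34 without GFP-low replicate 3. Acta1 read 4.85, 4.82, 4.06 and 4.88 in GFP-high and 4.25, 4.61, 3.51 and 4.57 in GFP-low, a difference of 0.42 ± 0.33 (limma adjusted p = 0.571), which was 0.17 without GFP-low replicate 3 and 0.26 with quantile normalisation. Replicate 3 of each group was its lowest array for Acta1, and the groups overlapped. The log2 ratio of Actc1 to Acta1 differed by 0.15 (exact permutation p = 0.314), and by -0.055 with quantile normalisation. The actin genes are nearly identical in their coding parts, and how far each probe reads the other transcript was not tested.

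Among the tropomyosins, which block or open the myosin sites on actin, Tpm1 (chr9:66875959-66877514) read 9.59, 9.65, 9.16 and 9.34 in GFP-high and 9.09, 9.45, 8.63 and 9.55 in GFP-low. Its difference was 0.26 ± 0.28, and another of its probes gave -0.17, so the sign was not shared by all 3 Tpm1 probes. Tpm2 (chr4:43532150-43532300) read 5.35, 4.80, 4.32 and 5.20 in GFP-high and 4.69, 4.65, 3.92 and 4.93 in GFP-low, a difference of 0.37 ± 0.33. Both tropomyosins overlapped between the groups, and their ratio differed by -0.11 (exact permutation p = 0.629). Of the other troponin subunits, Tnnc1, which binds calcium, had 0.35 ± 0.28 and Tnnt2, which anchors the complex to tropomyosin, had 0.29 ± 0.22. A second Tnnt2 probe (chr1:137735641-137735700) gave 1.17 ± 0.34 (limma adjusted p = 0.231 over 18482 probes, of which 0.0379% passed). On this probe the GFP-high arrays, 4.50, 4.22, 4.62 and 3.70, were all above the GFP-low arrays, 3.55, 2.49, 3.35 and 2.96. The probe was chosen after its values were seen.

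The 2 thin filament genes with negative differences both act at the slow, pointed end of actin filaments. Tmod1, tropomodulin, which caps that end (chr4:46127384-46127441), read 2.74, 2.71, 2.65 and 2.71 in GFP-high and 2.83, 2.78, 3.06 and 3.17 in GFP-low. The groups did not overlap although the difference was small, -0.26 ± 0.21 (limma adjusted p = 0.575), since the GFP-high arrays lay within a narrow range. A second probe gave -0.35. Lmod2, leiomodin, which lengthens filaments from the same end (chr6:24554487-24554546), read -5.38, -5.28, -2.63 and -1.67 in GFP-high and -3.31, -1.26, -0.48 and -0.36 in GFP-low, a difference of -2.39 ± 0.99 (limma adjusted p = 0.331). It cleared background on 1 array of GFP-high and on 3 of GFP-low, and the size depended on how low signals were treated: -0.49 with normexp background correction and -0.74 with a common floor, a limit to which dimmer values were lifted. The log2 ratio of Tmod1 to Lmod2 differed by 2.13 between the groups (exact permutation p = 0.171), but by 0.10 with normexp (exact permutation p = 0.857) and 0.48 with a common floor (exact permutation p = 0.143).

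**Figure D2:**
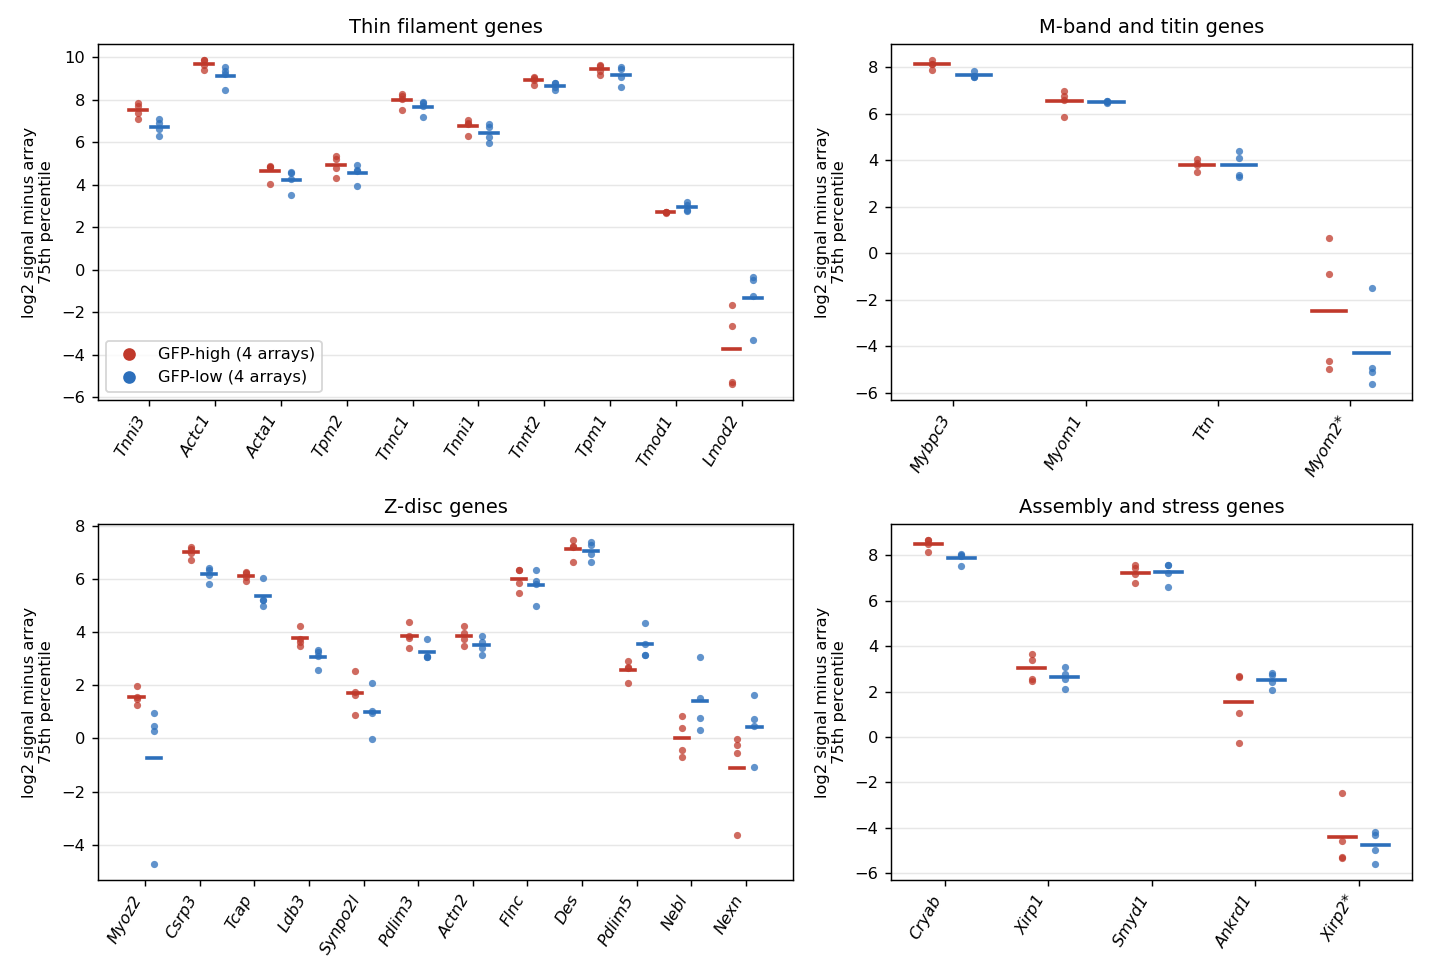
Log2 signal minus the array's 75th percentile (y axis) of the brightest probe of each member (x axis) on each of 4 GFP-high (red) and 4 GFP-low (blue) arrays, with group means as bars, in the 4 subgroups; an asterisk marks the 2 members not tested. Tnni3 and Csrp3 show separated groups of close points, while Lmod2, Myoz2 and Nexn spread widely within a group; heights are not comparable between genes.

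In the Z-disc, 9 of 12 genes had positive and 3 had negative differences, and again none passed the test. Csrp3, muscle LIM protein (chr7:56086063-56087977), read 7.12, 7.21, 6.71 and 6.96 in GFP-high and 6.15, 6.40, 5.82 and 6.34 in GFP-low. It had the smallest p of the 31 genes, with a difference of 0.82 ± 0.24 (1.77-fold, limma adjusted p = 0.235). Every GFP-high array was above every GFP-low array, and the difference was 0.89 within slide 1 and 0.75 within slide 2. Tcap, telethonin, which joins titin ends at the Z-disc (chr11:98246127-98246186), read 6.25, 6.08, 5.93 and 6.22 in GFP-high and 5.21, 5.21, 4.99 and 6.03 in GFP-low, a difference of 0.76 ± 0.28 (1.70-fold, limma adjusted p = 0.295). Only GFP-low replicate 4 reached into the GFP-high range.

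Ldb3, also called cypher, a PDZ-LIM protein that binds alpha-actinin (chr14:35374689-35374748), read 3.61, 3.72, 3.48 and 4.22 in GFP-high and 3.33, 3.25, 3.11 and 2.56 in GFP-low. The groups did not overlap, with a difference of 0.70 ± 0.28 (limma adjusted p = 0.319). A neighbouring probe gave 0.77 with separated groups as well, but another probe on the same gene (chr14:35342653-35342712) gave -0.39 with overlapping groups, so the probes of Ldb3 disagreed in sign. Myoz2, calsarcin, which links alpha-actinin to calcineurin (chr3:122709486-122716527), read 1.49, 1.95, 1.56 and 1.25 in GFP-high and 0.28, 0.48, 0.94 and -4.71 in GFP-low. GFP-low replicate 4 was not well above background and set most of the difference of 2.31 ± 1.14 (limma adjusted p = 0.386): without that array it was 0.99. The other 3 GFP-low arrays were still below every GFP-high array.

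The PDZ-LIM genes Pdlim3 and Pdlim5, which encode the related Z-disc proteins ALP and ENH, had differences of opposite sign. Pdlim3 (chr8:47004578-47004637) read 3.76, 3.40, 4.38 and 3.84 in GFP-high and 3.74, 3.06, 3.08 and 3.11 in GFP-low, at 0.60 ± 0.29 (limma adjusted p = 0.385). Its groups overlapped because GFP-low replicate 1 was high and GFP-high replicate 2 was low. Pdlim5 (chr3:141967371-141967430) read 2.08, 2.63, 2.68 and 2.91 in GFP-high and 3.14, 3.14, 4.35 and 3.57 in GFP-low, at -0.98 ± 0.34 (1.97-fold lower, limma adjusted p = 0.277). Every GFP-high array was below every GFP-low array, and all 5 Pdlim5 probes had negative differences, from -0.98 to -0.28. The log2 ratio of Pdlim3 to Pdlim5 was 1.69, 0.77, 1.70 and 0.93 in GFP-high and 0.60, -0.088, -1.28 and -0.45 in GFP-low. It was 1.58 higher in GFP-high and did not overlap between the groups. The exact two-sided permutation p was 0.0286, the smallest that the 70 assignments of 8 arrays can give, and 0.143 after adjustment over the 5 pairs tested. This pair, like the others, was chosen with earlier results of these data known. The ratio differed by 0.97 within slide 1 and 2.18 within slide 2.

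**Figure D3:**
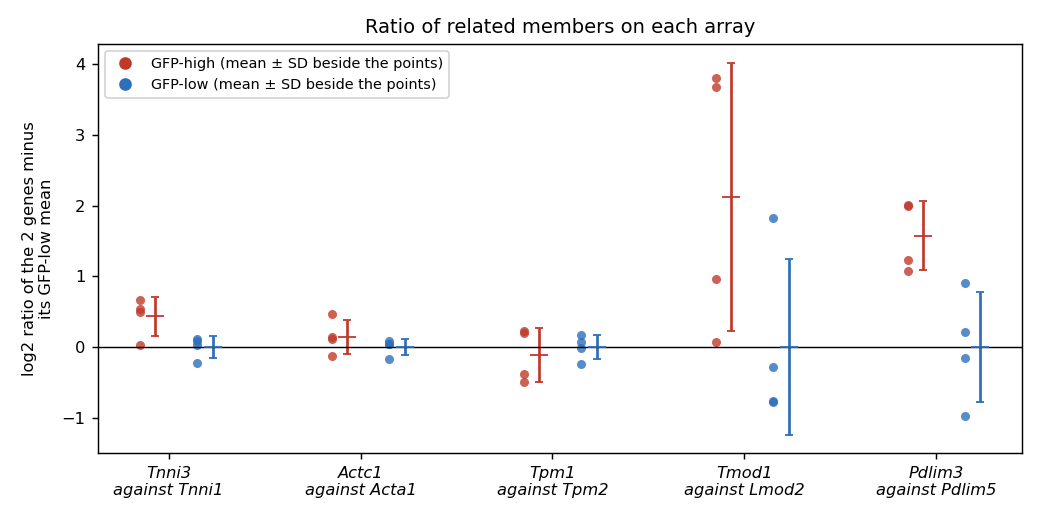
Log2 ratio of the brightest probes of 2 related members on each array, minus the GFP-low mean of that ratio (y axis), for the 5 tested pairs (x axis), with group means ± SD beside the points (n = 4 each). Pdlim3 against Pdlim5 is the pair whose GFP-high and GFP-low arrays do not overlap, and Tmod1 against Lmod2 has the widest spread.

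The other Z-disc genes overlapped between the groups. Nebl, nebulette, which ties actin to the Z-disc, had -1.40 ± 0.62 with a second probe at -1.28, and without GFP-low replicate 2, its highest array, the difference was -0.85. Nexn, nexilin, had -1.55 ± 0.88 and a second probe at -0.50, and without GFP-high replicate 3 it was -0.71. Synpo2l had 0.69 ± 0.50, Actn2, the alpha-actinin of the heart, 0.34 ± 0.27 and Flnc, the muscle filamin, 0.23 ± 0.35. Des, which encodes desmin, the intermediate filament around the Z-disc, had 0.063 ± 0.29, below the median of all genes. The sign of Des and Flnc was not stable: quantile normalisation gave -0.17 for Des, and Flnc was -0.017 within slide 2.

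In the M-band and titin group, Mybpc3 was the gene whose groups did not overlap. Mybpc3, which binds myosin and titin in the zones flanking the M-band (chr2:90976577-90976636), read 8.15, 8.31, 7.89 and 8.17 in GFP-high and 7.65, 7.60, 7.57 and 7.85 in GFP-low. The groups did not overlap, although GFP-high replicate 3 and GFP-low replicate 4 nearly met, and the difference was 0.46 ± 0.22 (1.38-fold, limma adjusted p = 0.367). It was 0.27 with normexp and 0.18 with quantile normalisation. Myom1, myomesin, the main cross-linker of the M-band (chr17:71475839-71475898), read 7.0, 6.62, 6.76 and 5.86 in GFP-high and 6.57, 6.54, 6.47 and 6.50 in GFP-low, at 0.041 ± 0.28, which was -0.17 with quantile normalisation. The GFP-low arrays of Myom1 were nearly equal, while GFP-high ranged around them, with replicate 4 lowest. A second Myom1 probe, above background on 6 arrays, gave 0.87 ± 1.23. Myom2, a myomesin of adult muscle (chr8:15133322-15133381), cleared background on only 2 arrays of GFP-high and 1 of GFP-low and was not tested; it read -0.90, -5.0, 0.65 and -4.62 in GFP-high and -1.51, -5.62, -5.11 and -4.94 in GFP-low.

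Ttn, titin, the largest protein of the sarcomere, was read by 9 probes, all above background on all 8 arrays. The brightest (chr2:76689775-76690126) read 3.82, 3.89, 3.49 and 4.04 in GFP-high and 3.29, 4.41, 3.35 and 4.10 in GFP-low, a difference of 0.023 ± 0.32 (-0.11 with quantile normalisation), with GFP-low replicates 2 and 4 highest of all. Along the gene from its 3′-most probe, the differences were 0.16 at 0 kb, 0.0071 at 0.507 kb, 0.19 at 9.70 kb and -0.27 at 38.2 kb. Further upstream they were 0.023 at 148 kb, the brightest probe, then -1.26 at 159 kb, -0.42 at 210 kb, 0.11 at 241 kb and -0.78 at 261 kb. Positive and negative values thus mixed, 5 against 4. The probe at 159 kb (chr2:76701487-76701546) had the smallest p of the 9, -1.26 ± 0.48 (limma adjusted p = 0.315 over all probes). It read 0.67, 1.99, 0.71 and 2.47 in GFP-high and 2.33, 3.46, 2.51 and 2.59 in GFP-low, so only GFP-high replicate 4 reached the GFP-low range. Titin is spliced into isoforms of different length, but which exons or isoforms each probe reads was not analysed here.

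**Figure D4:**
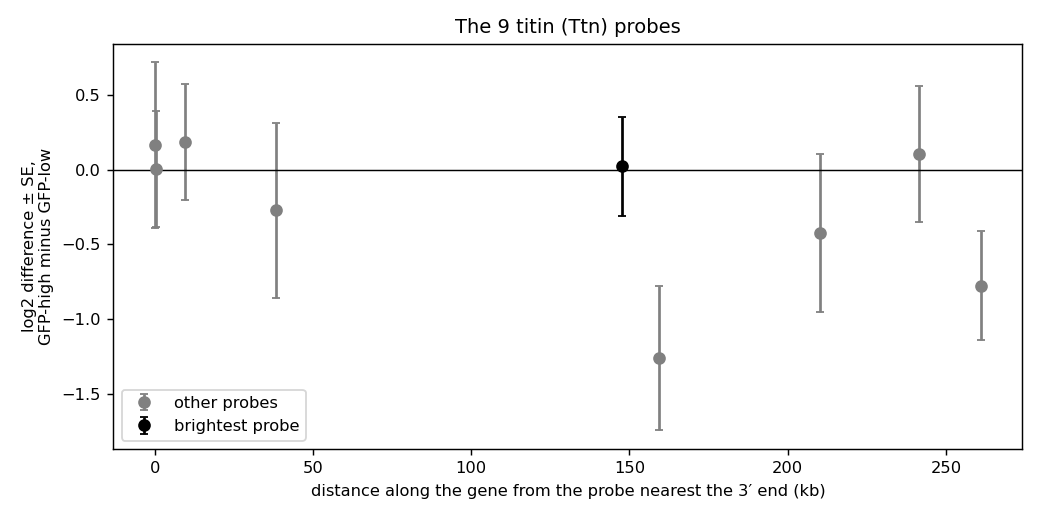
Log2 difference between GFP-high and GFP-low ± SE (y axis) of the 9 Ttn probes by distance in kb from the probe nearest the 3′ end (x axis), with the brightest probe in black. The 3 probes in the first 9.70 kb lie between 0.0071 and 0.19, and the lowest value, -1.26, is at 159 kb.

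Among assembly and stress factors, Cryab had groups that did not overlap. Cryab, a small heat shock protein that binds desmin and titin (chr9:50564440-50564499), read 8.68, 8.66, 8.16 and 8.52 in GFP-high and 7.96, 8.01, 7.55 and 8.08 in GFP-low. Its difference was 0.61 ± 0.24 (1.52-fold, limma adjusted p = 0.317), and a second probe gave 0.78. Ankrd1, a stretch-responsive partner of titin (chr19:36186809-36186868), read -0.25, 1.05, 2.68 and 2.65 in GFP-high and 2.41, 2.07, 2.83 and 2.71 in GFP-low, at -0.97 ± 0.64 (limma adjusted p = 0.498). GFP-high replicates 1 and 2 were lower than every other array, while replicates 3 and 4 lay within the GFP-low range; the difference was -1.84 within slide 1, -0.11 within slide 2 and -0.38 without GFP-high replicate 1.

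Xirp1, Xin, an actin-binding protein of cell junctions (chr9:119923224-119923283), read 3.67, 3.41, 2.46 and 2.55 in GFP-high and 2.78, 3.09, 2.11 and 2.55 in GFP-low, at 0.39 ± 0.36 with overlapping groups. Its relative Xirp2 cleared background on no array with any of its 3 probes, and was not tested; its brightest probe (chr2:67363961-67364020) read -5.36, -5.28, -2.48 and -4.58 in GFP-high and -4.34, -5.60, -4.99 and -4.21 in GFP-low. Smyd1, a methyltransferase needed for myofibril assembly, had -0.014 ± 0.31, and its second probe gave -0.10.

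Among the members, probes of 1 gene mostly had the same sign, but the share over all genes is not given here. Of 16 members with at least 2 measured probes, 13 had probes of 1 sign and 3 (Ldb3, Tpm1 and Ttn) had probes of both signs. Over the 58 measured probes of the members, 37 were positive, 8 were higher and 3 lower at an unadjusted limma p under 0.05, and none passed after adjustment. Of all 18482 measured probes, 58.7% were positive, 6.87% were higher and 7.03% lower at that unadjusted p. In 11 members the brightest probe spans more of the genome than its 60 bases.

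The members were low together on some arrays of both groups. GFP-low replicate 3 was the lowest array for 17 of the 29 tested members, with a median of -0.62 relative to each member's mean over the 8 arrays. GFP-high replicate 3 followed at -0.18 and GFP-low replicate 1 at -0.15, while the other arrays lay between 0.0012 and 0.30. These 3 arrays also had the highest signal of erythroid markers, which include the embryonic globins. Their 75th percentile of the processed signal, by which all values are scaled, was the highest too. It was 184 on GFP-high replicate 3, 196 on GFP-low replicate 1 and 217 on GFP-low replicate 3. On the others this percentile was 138 to 156. Whether erythroid signal or scaling made the members read low there was not tested. The summed signal of 10 erythroid genes, in multiples of the array's 75th percentile, was 33.7, 49.9, 196 and 26.1 in GFP-high and 184, 35.9, 125 and 13.2 in GFP-low. On the 5 other arrays alone, an alternative chosen after seeing the data, the median difference of the members was 0.26, beside 0.13 for all genes, with 19 of 29 positive and none past the test. Of the 10 erythroid genes, 7 were tested and none passed. Without GFP-low replicate 3 the differences of 9 members were smaller by over 1.5 times: the actins as given above, 0.072 for Tpm1, 0.16 for Tpm2, 0.18 for Tnni1, 0.19 for Tnnc1, 0.22 for Actn2, 0.34 for Synpo2l and 0.22 for Xirp1. Without GFP-high replicate 1 the same held for Tpm2 (0.23), Actn2 (0.21), Xirp1 (0.18) and Ankrd1 (-0.38). Synpo2l was 0.41 without GFP-high replicate 4 and 1.05 without GFP-low replicate 4, and Tpm2 was 0.57 without GFP-high replicate 3.

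**Figure D5:**
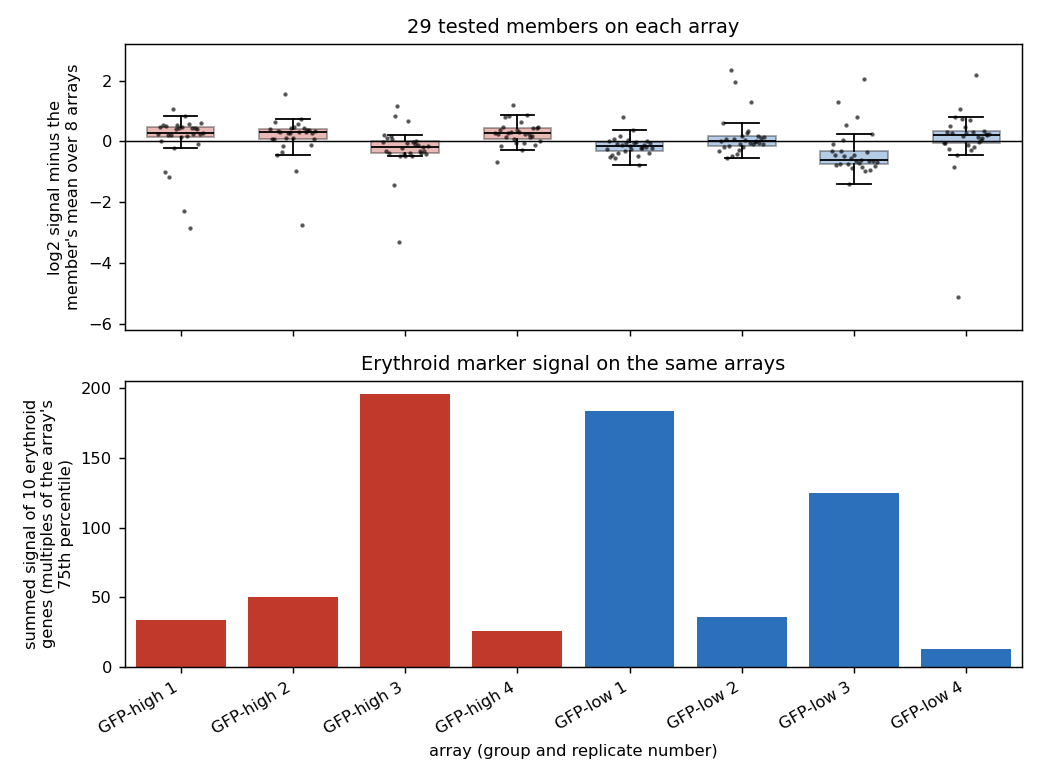
Top, log2 signal of each of the 29 tested members minus its mean over the 8 arrays (y axis) on every array (x axis), with boxes for the quartiles and the median and each member as a point. Bottom, summed signal of 10 erythroid genes on the same arrays; the 3 highest arrays (GFP-high 3, GFP-low 1 and GFP-low 3) are those with box medians below 0.

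Markers of other cells were read on the same arrays. The leukocyte list summed to between 11.6 and 15.7 in GFP-high and between 3.68 and 6.34 in GFP-low. Lyz2 alone made up most of this sum on every array, so the sum mainly reads 1 transcript. Only 2 of 8 genes were tested, Lyz2 at 1.46 and Cd68 at 0.94. The other 6 were too dim, and Csf1r and Ptprc were not above background on any array. The epicardium list summed to 7.90 to 9.49 in GFP-high and 5.36 to 8.30 in GFP-low, with 4 of 8 genes tested and Lrrn4, Msln, Upk1b and Upk3b not above background on any array. The endothelium and endocardium list summed to 4.50 to 7.13 and 3.78 to 7.71, with 5 of 10 tested and with Pecam1 and Tek not above background on any array. The cushion mesenchyme and fibroblast list summed to 2.37 to 5.52 and 2.96 to 12.4, with 5 of 10 tested. The neural crest and neuron list summed to 2.18 to 3.86 and 2.22 to 4.88, with 3 of 8 tested and with Elavl4 and Stmn2 among those not above background on any array. The smooth muscle list summed to 298 to 516 and 221 to 481, with 7 of 8 tested. Acta2 and Des, which is also a member, together made up most of this sum on every array. The skeletal muscle list summed to 82.3 to 129 and 57.9 to 93.4, and Tnni2 made up most of this on every array. Only 2 of its 9 genes were tested, Tnni2 at 0.43 and Tnnt3 at -0.99. Actn3, Myf5, Myod1 and Pax7 were not above background on any array. No gene of these lists passed limma after adjustment, 1 was higher at an unadjusted p under 0.05 (Lyz2), and their part in the members' differences was not tested.

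Other genes, in 6 lists chosen around the contractile apparatus, showed the same absence of calls, with differences in both directions. Myosin chains and kinases had a median of 0.42 over 11 of 14 genes tested, 10 of them positive, with Myl9 at 0.58 (limma adjusted p = 0.331) and the ventricular light chain gene Myl3 at 0.53 (0.386). Other thin filament genes had a median of -0.20 over 18 of 20, with 8 positive and 10 negative. Their smallest p belonged to Tnnt1, the slow skeletal troponin T, at 0.89 (0.174), and Lmod3, a relative of Lmod2, at -2.40 (0.224). Tnnt1 read 6.96, 6.86, 6.76 and 6.86 in GFP-high and 5.94, 5.87, 5.83 and 6.25 in GFP-low, with no overlap. Other Z-disc and costamere genes had a median of 0.11 over 23 of 25, with Fhl2, a LIM protein, at 1.15 (0.112) and Actn1, the alpha-actinin of non-muscle cells, at -1.54 (0.192).

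Fhl2 read 5.28, 5.61, 5.28 and 5.22 in GFP-high and 4.15, 4.30, 4.15 and 4.17 in GFP-low, the clearest separation among these lists by p. With a common floor it passed at a limma adjusted p of 0.0212, as did Tnnt1 at 0.0474, and with a trended, robust prior Fhl2 passed at 0.0165. Other M-band and titin-ligase genes had a median of 0.071 over 10 of 10, with Speg at -0.30 (limma adjusted p = 0.589). Other assembly factors and chaperones had a median of 0.24 over 17 of 17, with Lrrc10 at 0.90 (limma adjusted p = 0.246). Popdc2, a Popeye domain gene kept on this list though not an assembly factor or chaperone, had 0.76 (limma adjusted p = 0.268). Neither gene overlapped between the groups. Transcription factors of sarcomere genes had a median of 0.25 over 15 of 16. Their smallest p belonged to Gata4 at 0.97 (0.219) and Tead1 at -1.06 (0.222), again without overlap.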

How the data were processed

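RNA of 4 GFP-high and 4 GFP-low samples was hybridised to 1-colour Agilent arrays. The authors deposited spot intensity values on a linear scale, read with Agilent Feature Extraction 10.5.1.1 per the submitters' processing notes; the file headers record background subtraction and detrending. The deposited value table held the same intensity in 100% of spots. Control spots (1639 per array) and outlier-flagged spots were left out, spots of 1 probe were averaged, and each array's 75th percentile was subtracted from its log2 values. Probes received current symbols from a RefSeq table of GRCm38.p6, used for names (33099 of 41174 probes matched); positions of probes come from the files (mm9). The brightest probe stood for each gene. Of 27725 gene names, 12876 were tested and 14849 were not.

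The groups were compared over all tested genes in limma 3.58.1 (R 4.3.3; lmFit and eBayes), with no covariate and with Benjamini-Hochberg adjusted p-values. Ratios within 5 pairs of members were compared by exact permutation; in 2 further pairs (Myom1 with Myom2, Xirp1 with Xirp2) 1 gene was too dim. The members, subgroups, pairs and lists were chosen with earlier results of these data known. Values on every array are printed for the 3 members of each subgroup with the smallest p, members whose groups do not overlap and members of pairs; in related lists, the 2 genes with the smallest p are named. Alternatives covered background correction, scaling, floor, filter, probe choice, slide, replicate number and left-out arrays. Single values of a few genes on the marker and related lists are not reported here.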

Additional observations from a re-analysis of the deposited data

Results flagged for a closer look

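Among 58 sets of 4 arrays (29 tested members in each group), 4 held an array far from its 3 companions by Dixon's ratio, above the critical value for 4 arrays. Chance marks about 1 in 20 such sets. Acta1 was 4.06 on GFP-high replicate 3, the lowest of its group. Nexn was -3.64 on the same array, where it was not well above background. Myoz2 was -4.71 on GFP-low replicate 4, also not well above background there. Pdlim3 was 3.74 on GFP-low replicate 1, the highest of its group, and the 3 other GFP-low arrays lay between 3.06 and 3.11.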

How the results depend on the processing

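No member passed the test in any alternative run; the smallest limma adjusted p was 0.0915, for Csrp3. The median of the members stayed positive in all 24 alternatives, from 0.10 to 0.47, as did those of all tested genes (0.051 to 0.27), the thin filament (0.093 to 0.50) and the Z-disc (0.28 to 0.54), while the M-band and titin median ran from -0.11 to 0.45 and the assembly and stress median from -0.0020 to 0.36. With quantile normalisation the thin filament median (0.0926) was below that of all genes (0.0935). The count of genes called over the whole array, 18, was 9 with quantile normalisation, 4 with the percentile over probes above background on all arrays, 0 with array medians, 42 with a common floor, 3 with no filter, 11 with probes above background on all 8 arrays, 11 with the slide as a block, 0 within slide 1, 0 within slide 2, 7 for a fit on probes, 0 on the 5 arrays with less erythroid signal and 0 to 7 with 1 array left out. The replicate block gave 0 calls. Equal numbers correlated at 0.115, 0.154, 0.303 and 0.0647 in their deviations. Each GFP-high array correlated best with the GFP-low array of its own number. GFP-low replicate 4 correlated better with GFP-high replicate 1 (0.0781). Samples of equal number lay on the same slide in neighbouring positions, 3 and 4 for replicates 1 and 3, and 1 and 2 for replicates 2 and 4. The labels do not say what else equal numbers share, so overlap of the groups was judged without pairing. Signs within equal numbers are not reported here. Over the members alone, equal numbers correlated at 0.561, 0.478, 0.709 and 0.324. Correlations of unequal numbers over the members are not given, so these values cannot show whether equal numbers were more alike. Members without overlap numbered 5 of 29 with normexp (17.2%, beside 7.62% of all tested genes), 24 within slide 1 (82.8%, beside 52.4%) and 11 within slide 2 (37.9%, beside 31.4%), where 2 arrays meet 2, 18 on the 5 arrays (62.1%, beside 33.6%) and 8 to 13 with 1 array left out, 13 without GFP-high replicate 3 (44.8%, beside 22.0%). The Z-disc median was 0.30 with normexp and 0.28 without GFP-low replicate 3. The M-band median was 0.45 with the mean over probes, again the value of Myom1 alone. In the related lists, 2 genes passed with the common floor and 1 with the trended, robust prior. Of 24 members with a difference over 0.25 in size, 11 were smaller by over 1.5 times or turned sign with quantile normalisation, and 11 were smaller with normexp. Signs turned for members near 0, and also for Tnnt2, Tpm1 and Flnc, which were at 0.29, 0.26 and 0.23 in the main run. With normexp, Des was -0.10, Myom1 -0.11 and Ttn -0.11. With quantile normalisation, Des was -0.17, Myom1 -0.17, Tnnt2 -0.027, Tpm1 -0.10, Ttn -0.11 and the ratio of Actc1 to Acta1 -0.055, and with both steps Des was -0.16, Myom1 -0.17, Tnnt2 -0.047, Tpm1 -0.15 and Ttn -0.076. With the other percentile, Des was -0.042, Myom1 -0.063 and Ttn -0.082. Ttn was -0.25 with the mean over probes. Within slide 1 Smyd1 was 0.091, and within slide 2 Flnc was -0.017 and Myom1 -0.17. On the 5 arrays, an alternative chosen after seeing the data, Des was -0.038, Myom1 -0.028 and Ttn -0.34. With 1 array left out, Des ran from -0.080 to 0.23, Flnc from -0.029 to 0.42, Myom1 from -0.11 to 0.27, Smyd1 from -0.22 to 0.14, Ttn from -0.14 to 0.23 and the ratio of Tpm1 to Tpm2 from -0.23 to 0.014. The cause was not tested. Signal near background limits Lmod2, Myoz2 and Nexn, which were not above it on all 8 arrays.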
